A study of Mus musculus with 6 samples.

Results

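Collagen genes encode the chains that wind into the triple helices of the extracellular matrix. The genes described here are all those whose symbol in the platform annotation is Col, a number, the letter a and a number, and 44 such genes were measured among 22180 genes in all. They were read in 6 mouse RNA libraries on Affymetrix Mouse Gene 2.0 ST arrays, which carry several short probes for each transcript, with 1 array per library and 1 library per group. Of the 44 genes, 11 encode fibrillar chains, 8 encode chains of basement membranes or their border zone, 9 encode fibril-associated (FACIT) chains and 16 encode other chains. The other chains comprise 8 bead-forming, 3 short-chain network, 4 transmembrane and 1 anchoring fibril chain.

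The starting cells were mouse iPS cells (induced pluripotent stem cells, made by reprogramming and able to give rise to most tissues), kept on feeder cells, whose part in their collagen values was not tested. They gave 3 differentiated libraries at day 7, from cells grown for 5 days as suspended embryoid bodies and then plated on gelatin with 1% DMSO and 100 ng/ml of the ERBB receptor ligand NRG-1 together, with NRG-1 alone, or with DMSO alone. A further pair was labelled as cardiomyocytes from adult and from neonatal mouse hearts, and the last library was undifferentiated iPS cells. All 6 were labelled DBA/2J and female. No culture that was differentiated without an agent was analysed here, so the agent and differentiation cannot be told apart in comparisons with undifferentiated cells. Because every group is 1 library, the differences below have no replicate check and no test, and each is a difference of log2 values between 2 arrays.

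Fibrillar collagens (types I, II, III, V, XI, XXIV and XXVII) assemble into the fibres that carry load in connective tissue, and in the heart they are made mainly by fibroblasts. Collagen IV forms the sheet-like network of basement membranes under epithelia, around vessels and around muscle cells, and it is made in large amounts by the parietal endoderm of the early mouse embryo. FACIT collagens decorate fibrils and set their spacing, and collagen VI forms beaded microfilaments close to cells. Each chain is hydroxylated, glycosylated and folded in the endoplasmic reticulum, and fibrillar chains then lose their propeptides outside the cell.

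The labels were checked first. The adult library had 6 of 13 cardiomyocyte markers that reached 5.20, the median of the values on the arrays (a value under it is called dim here). The iPS library had 8, the neonatal library 12, and the cultures 12 or 13. In the adult library Myh6, the main myosin heavy chain of the adult mouse heart, stood at 5.05 and Myl2, the ventricular light chain, at 5.33, against 6.47 and 5.55 in the neonatal library and 5.82 and 4.94 in iPS cells. Of the 13 markers 1 was at least 2-fold higher in adult than in iPS cells, Tnnt2 (8.22 in adult and 6.35 in iPS cells), against 4 in neonatal cells and 7 to 10 in the cultures. Among all genes, 13.1% were that much higher in adult cells, 13% in neonatal cells and 11.3% to 13.1% in the cultures. The adult count was near that share. All 10 non-collagen fibroblast markers were at or above the median in both heart-derived libraries, and the sum of their log2 values was 100.73 in the adult and 94.21 in the neonatal library, between 67.95 and 71.92 in the cultures and 59.35 in iPS cells. The Y-linked gene Eif2s3y stood at 8.15 and 6.20 in the adult and neonatal libraries, against 3.27 in iPS cells, which goes against their label as female. Xist, the transcript that silences an X chromosome in females, stood at 3.39 in the adult and 8.78 in the neonatal library, against 5.97 in iPS cells, so the neonatal library held both signals and the adult library the Y-linked one. The names adult and neonatal below are those of the labels. Epithelial markers summed to between 74.2 and 74.9 in the cultures, 42.1 and 50.5 in adult and neonatal cells and 56.1 in iPS cells, and pluripotency markers to between 42.8 and 44.7, 38.2 and 36.6, and 75.8 in the same order. Smooth muscle and pericyte markers summed to 68.8 and 68.7 in adult and neonatal cells and between 58.2 and 60.1 in the others, and endothelial markers to between 44.4 and 48.9 in all 6. In RNA from whole cultures or tissues, fewer cells of a type and less RNA per cell cannot be told apart.

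The windows below show the start regions of genes whose values moved together: Col1a2 and Col3a1, fibrillar genes that were highest in the heart-derived libraries, and Col4a1 and Col4a2, basement membrane genes that were highest in the cultures. They are the 250 bases before and 50 bases from the annotated start, 5′ to 3′ on the strand of the gene, from RefSeq on build GRCm38.p6, in which 35 of the 44 genes had a window. Capitals mark matches on either strand. The motifs searched were the TATA box with the letters TATAAA, the CCAAT box with the letters CCAAT, the GC box with the letters GGGCGG, and the AP-1 site, for which the letters TGACTCA were used. The Col1a2 window is chr6:4505368-4505667 on the plus strand.
Col1a2: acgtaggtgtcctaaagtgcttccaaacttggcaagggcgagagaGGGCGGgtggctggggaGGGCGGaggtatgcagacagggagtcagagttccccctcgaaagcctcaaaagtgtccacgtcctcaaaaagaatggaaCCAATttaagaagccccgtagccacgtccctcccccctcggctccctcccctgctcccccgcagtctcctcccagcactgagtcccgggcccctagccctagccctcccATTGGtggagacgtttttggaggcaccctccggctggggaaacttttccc
The Col3a1 window is chr1:45311288-45311587 on the plus strand.
Col3a1: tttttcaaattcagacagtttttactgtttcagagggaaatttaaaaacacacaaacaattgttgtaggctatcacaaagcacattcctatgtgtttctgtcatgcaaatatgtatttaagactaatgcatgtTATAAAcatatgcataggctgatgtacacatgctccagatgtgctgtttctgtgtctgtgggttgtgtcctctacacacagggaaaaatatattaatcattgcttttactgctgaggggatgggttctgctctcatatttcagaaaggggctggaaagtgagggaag
The Col4a1 window is chr8:11312777-11313076 on the minus strand.
Col4a1: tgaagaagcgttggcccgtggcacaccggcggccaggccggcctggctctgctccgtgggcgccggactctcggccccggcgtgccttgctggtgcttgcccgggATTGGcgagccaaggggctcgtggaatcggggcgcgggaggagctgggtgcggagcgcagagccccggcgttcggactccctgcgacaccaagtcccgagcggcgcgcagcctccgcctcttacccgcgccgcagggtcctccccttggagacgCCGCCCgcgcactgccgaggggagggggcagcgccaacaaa
The Col4a2 window is chr8:11312555-11312854 on the plus strand.
Col4a2: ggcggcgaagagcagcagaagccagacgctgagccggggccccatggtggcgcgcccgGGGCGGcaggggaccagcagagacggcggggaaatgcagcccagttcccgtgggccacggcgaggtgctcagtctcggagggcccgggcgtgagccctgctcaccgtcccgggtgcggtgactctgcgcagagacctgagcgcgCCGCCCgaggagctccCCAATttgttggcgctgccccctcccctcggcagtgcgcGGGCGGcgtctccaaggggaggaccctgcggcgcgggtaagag
Col4a1 and Col4a2 lie head to head on chromosome 8. Their annotated starts are 21 bases apart and their windows share 78 bases (chr8:11312777-11312854), so the GC box just after the start of each is the same stretch of DNA read from opposite strands. Counted from the start, a CCAAT box began at -32 in Col4a2 and another, on the reverse strand, at -145 in Col4a1. The Col1a2 window held CCAAT at -109, CCAAT on the reverse strand at 1, and GGGCGG at -205 and -188. The Col3a1 window held a TATAAA match at -117 and none of the other letters. GGGCGG was found in 23 of 38 collagen windows (60.5%), against 35.7% of 32851 windows of all genes. CCAAT was found in 34.2% of collagen windows and 37.4% of all, TATAAA in 13.2% and 13.6%, and TGACTCA in 2.63% and 5.2%. These matches describe letters in a window and are not evidence of binding.

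Across the libraries 23 of the 44 genes spanned at least 2-fold and 13 spanned at least 4-fold (29.5%, against 10.7% of all genes). Of the 23, 11 had their highest value in the adult library, 7 in the neonatal library, 2 with NRG-1 alone, 2 in iPS cells and 1 with DMSO alone. The remaining 21 genes spanned between 0.14 and 0.98 on the log2 scale. The probe sets of a gene gave a yardstick for technical error. For 968 genes with 2 probe sets, the SD of the disagreement between their log2 differences was divided by the square root of 2. The result, called the probe set SD, is that of the difference of 1 probe set. It was 0.58 to 0.63 in comparisons with iPS cells, 0.38 for adult minus neonatal, and 0.23 to 0.31 between cultures.

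**Figure D1:**
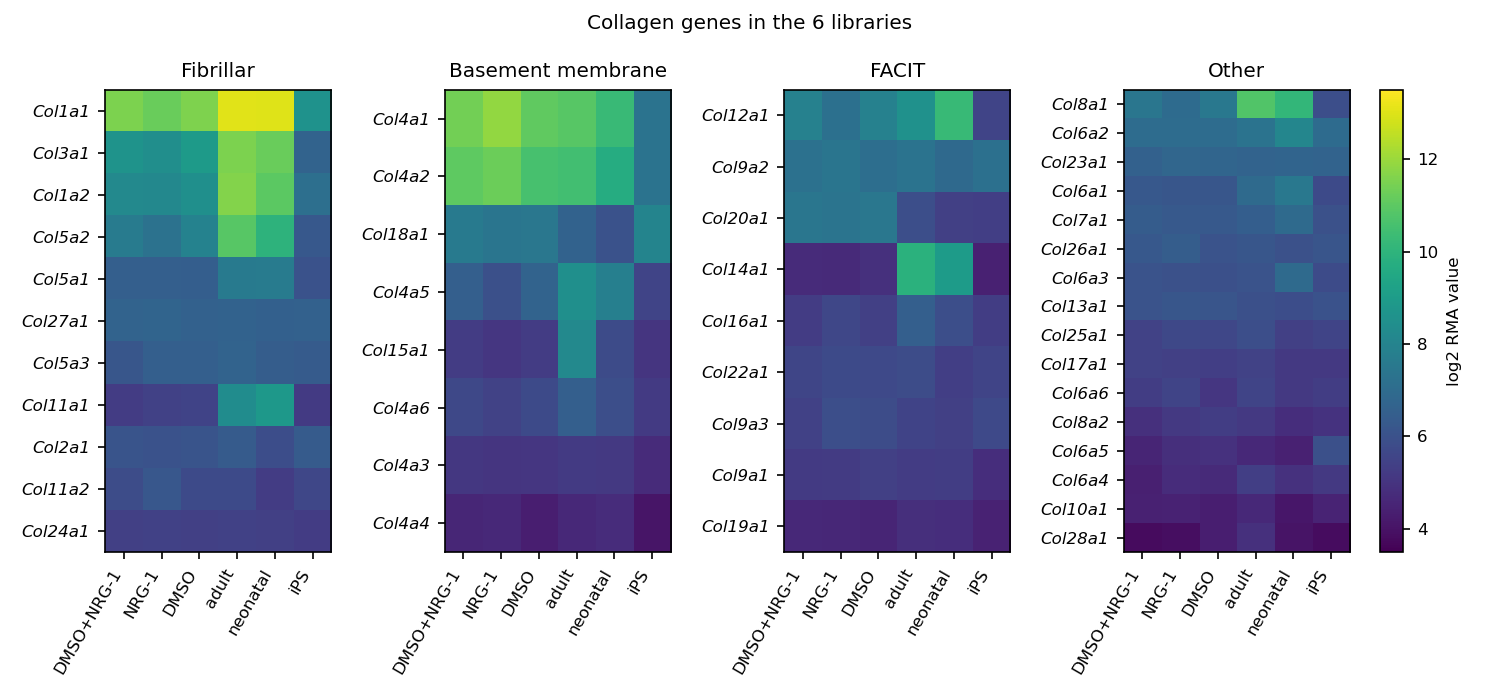
Colour gives the log2 RMA value of each of the 44 collagen genes (rows, by class) in each of the 6 libraries (columns), and is meant to be compared along a row. Col1a1, Col1a2, Col3a1 and Col5a2 are brightest in the adult and neonatal columns, Col4a1 and Col4a2 in the NRG-1 column, and Col14a1 is bright in the adult and neonatal columns (9.87 and 8.98) and dark in the rest.

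Among the fibrillar collagens, the heart-derived libraries had far higher values than iPS cells for types I, III, V and XI, and the cultures lay between for types I and III. Col1a1, a chain of collagen I, the main collagen of fibrous tissue, had values of 11.54 with DMSO and NRG-1, 11.23 with NRG-1 and 11.56 with DMSO, 13.05 in adult and 12.99 in neonatal cells, against 8.61 in iPS cells. Its partner chain Col1a2 had 8.22, 8.17 and 8.48 in the same cultures, 11.65 in adult and 10.97 in neonatal cells, against 7.15 in iPS cells. The 3 cultures therefore lay close together, above iPS cells and below both heart-derived libraries for both chains.

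Col3a1 encodes the single chain of collagen III, which is abundant in distensible tissue. It stood at 8.65 with both agents, 8.44 with NRG-1 and 8.93 with DMSO, 11.54 in adult and 11.23 in neonatal cells, against 6.67 in iPS cells. The adult difference from iPS cells, 4.87, was a 29.3-fold ratio and the DMSO difference was 2.26. Col5a2, a chain of collagen V, which nucleates collagen I fibrils, lies next to Col3a1 on chromosome 1 with no protein-coding gene between them. It had 7.67, 7.29 and 7.93 with both agents, NRG-1 and DMSO, 10.91 in adult and 9.98 in neonatal cells, against 6.26 in iPS cells. Both neighbours had the same order of libraries, adult first, then neonatal, DMSO, both agents, NRG-1 and iPS cells last. That order was not particular to them, for Col1a1, Col1a2, Col4a5, Col4a6, Col8a1 and Col14a1 had it too.

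Col11a1, a chain of collagen XI, best known from cartilage, was set apart by heart-derived against cultured cells. Its values were 5.26, 5.42 and 5.50 with both agents, NRG-1 and DMSO, 8.35 in adult and 8.83 in neonatal cells, against 5.20 in iPS cells. The cultures stayed within 0.30 of iPS cells, while the adult and neonatal values were 3.15 and 3.63 above them. Col2a1, the main cartilage collagen, did not share this, with 6.08, 6.03 and 6.11 in the cultures, 6.35 in adult and 5.86 in neonatal cells, and 6.37 in iPS cells. Of 9 measured cartilage and bone markers, Matn1, Hapln1, Comp, Sp7 and Ibsp were dim in all libraries. Acan was highest in neonatal cells (6.56), with 4.91, 5.04 and 4.75 in the cultures, 5.36 in adult and 5.54 in iPS cells. Bglap lay between 5.01 and 5.74 and Snorc between 4.36 and 5.61. The cartilage regulator Sox9 had 8.29, 7.29 and 8.19 in the cultures, 9.25 in adult and 7.40 in neonatal cells, against 5.74 in iPS cells. Col11a2 had values between 5.28 and 6.21.

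Col5a1, the other main chain of collagen V, had 6.53, 6.53 and 6.51 with both agents, NRG-1 and DMSO, 7.62 in adult and 7.64 in neonatal cells, against 6.03 in iPS cells. It was 1.59 and 1.61 above iPS cells in adult and neonatal cells and between 0.47 and 0.50 above them in the cultures. Its 2 probe sets disagreed, for the brighter gave 3.04 and 2.95 for adult and neonatal minus iPS, and the dimmer 0.15 and 0.27. For Col1a2 the 2 probe sets gave like differences, 4.34 and 4.66 for adult minus iPS and 1.35 and 1.31 for DMSO minus iPS. For NRG-1 minus iPS they gave 0.81 and 1.23, so that the 2-fold call of Col1a2 there was lost with the brighter set. The remaining fibrillar genes, Col5a3, Col24a1 and Col27a1, lay within 0.30 of iPS cells in each of the other 5 libraries.

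Counted over the class, 6 of the 11 fibrillar genes were at least 2-fold higher in adult cells than in iPS cells, 6 in neonatal cells and 4 in each culture, and 0 were lower in any of them. Of all genes, 13% were that much higher with both agents, 11.3% with NRG-1, 13.1% with DMSO, 13.1% in adult and 13% in neonatal cells. The class median difference was 0.22 with both agents, 0.50 with NRG-1, 0.30 with DMSO, 1.59 in adult and 1.61 in neonatal cells, beside medians of all genes between -0.04 and -0.002. Each comparison with iPS cells shares that 1 library, so these counts are not independent.

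**Figure D2:**
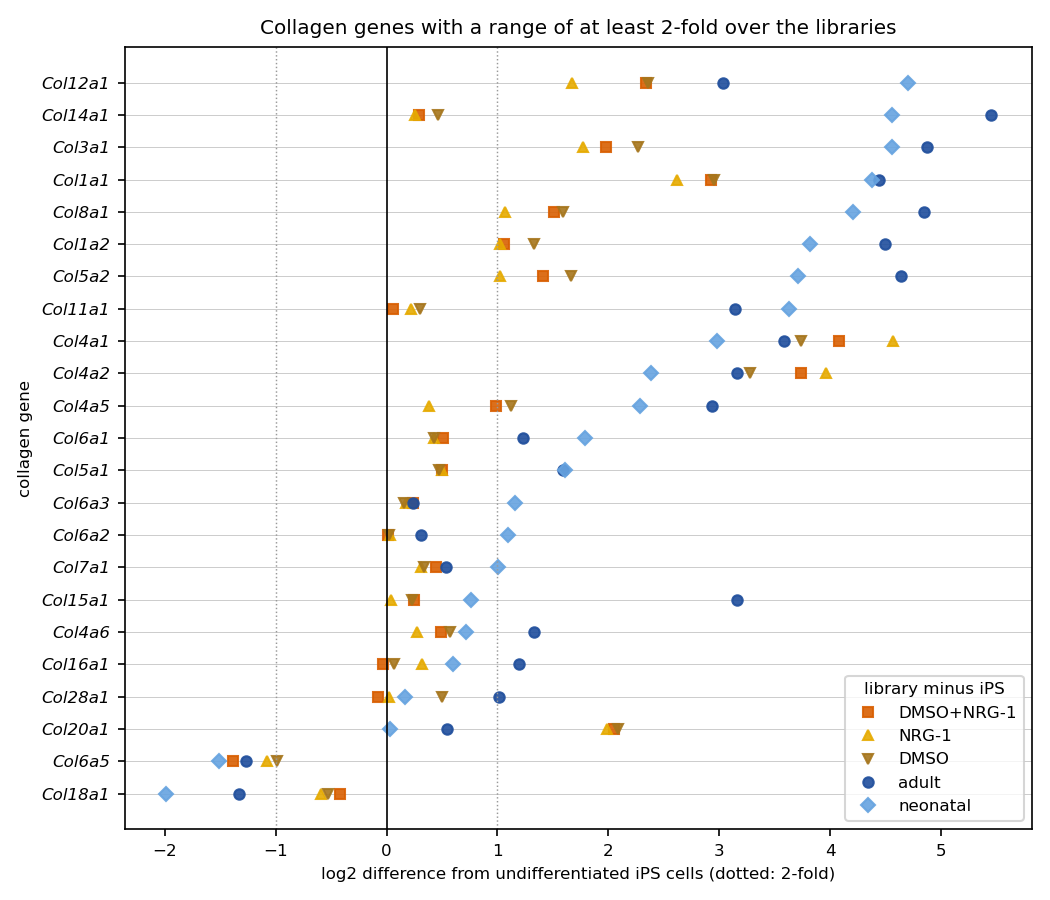
Each point is the log2 difference of 1 library from undifferentiated iPS cells (x axis, dotted lines at 2-fold) for the 23 collagen genes (y axis) that spanned at least 2-fold. The adult and neonatal points lie to the right of all culture points for genes such as Col1a1, Col3a1, Col8a1 and Col14a1, whereas for Col4a1, Col4a2 and Col20a1 the culture points lie farthest right, and Col6a5 and Col18a1 lie left of 0.

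Among the basement membrane collagens, Col4a1 and Col4a2 had another order, with the cultures first, which the class as a whole did not share. Of its 8 genes, 2 were at least 2-fold higher than in iPS cells with both agents, 2 with NRG-1, 3 with DMSO, 5 in adult and 3 in neonatal cells, while 1 was lower in adult and 1 in neonatal cells. The class medians of the difference were 0.49, 0.34 and 0.45 in the cultures with both agents, NRG-1 and DMSO, 2.13 in adult and 0.74 in neonatal cells. Col4a1, a chain of the widespread form of collagen IV, had 11.39 with DMSO and NRG-1, 11.87 with NRG-1 and 11.04 with DMSO, 10.89 in adult and 10.28 in neonatal cells, against 7.30 in iPS cells. Col4a2, its partner in the same trimer, had 11.04, 11.26 and 10.58 in those cultures, 10.46 in adult and 9.68 in neonatal cells, against 7.30 in iPS cells. For both genes the library with NRG-1 alone was highest, then both agents, DMSO, adult, neonatal and iPS cells. NRG-1 minus iPS was 4.57 for Col4a1, a 23.7-fold ratio that ranked 27 of 22180 genes, and 3.97 for Col4a2, which ranked 45.

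The DMSO and adult values, neighbours in that order, were close, at 11.04 and 10.89 for Col4a1 and 10.58 and 10.46 for Col4a2. DMSO minus neonatal was 0.76 for Col4a1 and 0.89 for Col4a2, and NRG-1 minus neonatal was 1.59 and 1.58, beside probe set SDs of 0.53 and 0.59. When the libraries were aligned on the median of 14 housekeeping genes, the median difference over all genes lay between 0.33 and 0.74 in comparisons with iPS cells and was -0.41 for both agents minus neonatal, and Col4a1 and Col4a2 were no longer 2-fold apart between both agents and neonatal cells. The 12 endoderm markers were all at least 2-fold higher than iPS cells in each culture. In adult and in neonatal cells 6 of them were that much higher and 1 was lower. Of all genes 11.3% to 13.1% were that much higher in these comparisons, and 14.1% and 11.2% lower in adult and neonatal cells. The sum of the markers' log2 values was 121.92, 123.39 and 119.70 in the cultures with both agents, NRG-1 and DMSO, 94.33 and 93.24 in adult and neonatal cells and 83.81 in iPS cells. Lama1, the laminin chain of embryonic basement membranes, stood at 12.16, 12.10 and 11.69 in the cultures, against 5.06 and 5.09 in adult and neonatal cells and 8.76 in iPS cells. The endoderm transcription factor Sox7 had 7.43, 7.78 and 7.23 in the cultures, 5.84 in adult and 4.93 in neonatal cells, and 5.38 in iPS cells. Not all 12 markers had this order. Nid1 had 11.30, 10.97 and 11.12 in the cultures, against 12.25 in adult and 11.94 in neonatal cells. Thbd was highest in neonatal cells (8.51), and Sparc had 12.05 to 12.19 in the cultures, 12.19 in adult and 11.91 in neonatal cells. The part of these cells in the collagen IV values was not tested.

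The other collagen IV chains did not follow. Col4a5, a chain of the glomerular and smooth muscle form, had 6.53, 5.93 and 6.66 with both agents, NRG-1 and DMSO, 8.48 in adult and 7.83 in neonatal cells, against 5.54 in iPS cells. The heart-derived libraries were thus highest and the culture with NRG-1 alone was 0.39 above iPS cells. Col4a6, its head-to-head neighbour on the X chromosome, had a smaller range of 1.33, with 6.52 in adult and 5.90 in neonatal cells, 5.47 to 5.76 in the cultures and 5.19 in iPS cells. Col4a3 and Col4a4, the partners of Col4a5 in the kidney glomerulus, were dim in all 6 libraries, between 4.07 and 5.18.

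Collagens XV and XVIII sit at the border of basement membranes and carry fragments known to restrain vessel growth. Col15a1 was high in adult cells alone, with 5.28, 5.07 and 5.27 in the cultures with both agents, NRG-1 and DMSO, 8.20 in adult and 5.80 in neonatal cells, against 5.04 in iPS cells. Col18a1, the source of endostatin, went the other way. It had 7.58, 7.40 and 7.47 in the cultures, 6.66 in adult and 6.01 in neonatal cells, against 7.998 in iPS cells, and so was the only class member lower than iPS cells in each of the other 5 libraries. The difference reached 2-fold in adult (-1.33) and neonatal cells (-1.99), and was between -0.42 and -0.59 in the cultures. With the libraries aligned on the housekeeping genes the adult difference no longer reached 2-fold.

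**Figure D3:**
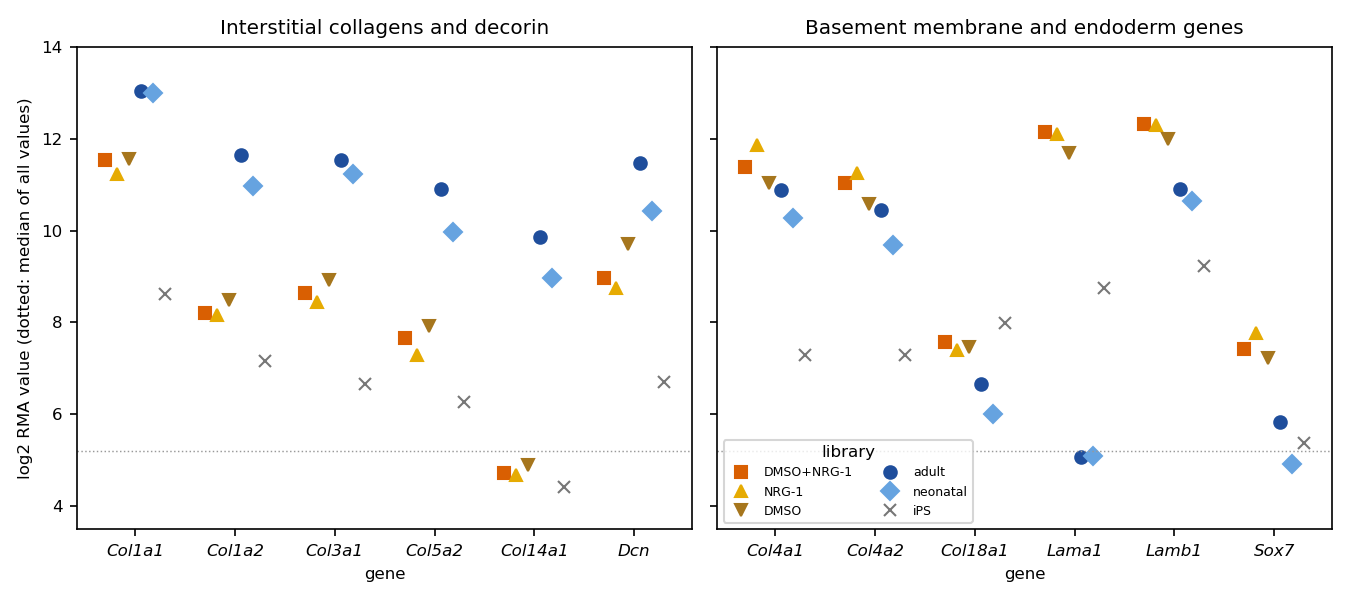
Points give the log2 RMA value (y axis) of each of the 6 libraries for 6 genes of the interstitial matrix on the left and 6 basement membrane or endoderm genes on the right, and the dotted line is the median of all values, 5.20. On the left the adult and neonatal points stand above the culture points. On the right the culture points stand above the adult and neonatal points for all 6 genes, and those of Lama1 are 12.16, 12.10 and 11.69 against 5.06 and 5.09. These 6 are a selection. The endoderm marker Nid1, not drawn, was higher in adult and neonatal cells (12.25 and 11.94) than in the cultures (10.97 to 11.30).

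Of the FACIT collagens, 3 of 9 had a range of at least 4-fold, and each had its own pattern. Col14a1 encodes collagen XIV, found in the interstitium and used as a fibroblast marker. It had 4.71, 4.68 and 4.89 with both agents, NRG-1 and DMSO, 9.87 in adult and 8.98 in neonatal cells, against 4.42 in iPS cells. The cultures and iPS cells were all below the median of all values, and the 2 heart-derived libraries were far above it. Adult minus iPS was 5.45, and since the iPS signal was dim, this difference may be understated. The fibroblast markers Tcf21 and Fap showed the same split, with Tcf21 at 5.15, 4.76 and 4.84 in the cultures, 8.36 in adult and 8.42 in neonatal cells, and 4.48 in iPS cells. Pdgfra, also a fibroblast marker but present in early mesoderm and primitive endoderm as well, did not: it stood at 10.69, 10.65 and 10.43 in the cultures, 11.25 and 10.78 in adult and neonatal cells and 7.13 in iPS cells. Lum did not either, with 7.03, 6.64 and 7.67 in the cultures, 7.36 and 7.66 in adult and neonatal cells and 4.38 in iPS cells. Of the 10 non-collagen fibroblast markers, 5, 4 and 5 were at least 2-fold above iPS cells with both agents, NRG-1 and DMSO. With NRG-1, 1 was that much lower. All 10 were that much higher in both heart-derived libraries. Of all genes, 11.3% to 13.1% were higher in these comparisons, and 14.5% were lower with NRG-1.

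Col12a1, a FACIT chain that binds collagen I fibrils in tendon and other stressed tissue, was highest in neonatal cells. It had 7.88, 7.21 and 7.90 with both agents, NRG-1 and DMSO, 8.58 in adult and 10.24 in neonatal cells, against 5.54 in iPS cells. It was 4.70 above iPS cells in neonatal cells, a 26.0-fold ratio, and the culture with NRG-1 alone was the lowest of the 3 cultures. Col20a1, a little-studied FACIT chain, was higher in the cultures than in all other libraries. Its values were 7.42, 7.36 and 7.46 with both agents, NRG-1 and DMSO, 5.91 in adult and 5.40 in neonatal cells, against 5.37 in iPS cells. It was the only collagen gene at least 2-fold above both heart-derived libraries in every culture. That is 1 of the 38 collagen genes that reached the median in at least 1 of these libraries (2.63%), beside 4.64% of all such genes.

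The other FACIT genes moved little. Col16a1 had 6.52 in adult cells and between 5.29 and 5.92 in the other libraries, and it was 2-fold above iPS cells in the adult library alone, by 1.20. Col9a1, a chain of the cartilage collagen IX, had 5.21, 5.23 and 5.39 in the cultures, 5.29 in adult and 5.30 in neonatal cells, and 4.81 in iPS cells. Col9a1, Col9a2, Col9a3 and Col22a1 had ranges of 0.47 to 0.57, and Col19a1 was dim throughout, between 4.44 and 4.86.

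Among the bead-forming collagens, the 3 chains of the common collagen VI trimer were highest in neonatal cells. Col6a1 had 6.24, 6.16 and 6.16 with both agents, NRG-1 and DMSO, 6.96 in adult and 7.52 in neonatal cells, against 5.73 in iPS cells. Col6a2, which lies beside it on chromosome 10, had 7.02, 7.04 and 7.03 in the cultures, 7.32 in adult and 8.11 in neonatal cells, against 7.01 in iPS cells. Col6a3, the longest chain of this trimer, had 6.04, 5.98 and 5.95 in the cultures, 6.04 in adult and 6.96 in neonatal cells, against 5.80 in iPS cells. In all 3 the neonatal library was at least 2-fold above iPS cells, and the cultures were within 0.51. The 2 probe sets of Col6a1 disagreed in size, with 2.61 and 0.975 for neonatal minus iPS, and 1 further probe set that names Col6a1 with other genes was left out.

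Col6a5, which can take the place of Col6a3 in the trimer, was dim in the cultures (4.54, 4.85 and 4.93), in adult (4.65) and in neonatal cells (4.42), against 5.92 in iPS cells. Col6a4, Col6a6 and Col26a1 spanned less than 2-fold. Col28a1 was dim in all libraries, between 3.78 and 4.87.

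Col8a1, a short-chain collagen of vessel walls and the subendothelium, behaved like the fibrillar genes. It had 7.43, 6.99 and 7.51 with both agents, NRG-1 and DMSO, 10.77 in adult and 10.13 in neonatal cells, against 5.92 in iPS cells. Its difference from iPS cells was 4.85 in adult cells, a 28.8-fold ratio and rank 34 of all genes. Col8a2 had values between 4.81 and 5.31 and Col10a1, the collagen of hypertrophic cartilage, was dim between 4.12 and 4.66. Col7a1, which forms the anchoring fibrils of skin, had 6.41, 6.27 and 6.30 in the cultures, 6.50 in adult and 6.97 in neonatal cells, against 5.96 in iPS cells. Its neonatal value was 1.00 above iPS cells and the others 0.31 to 0.54 above them. The 4 transmembrane collagens, Col13a1, Col17a1, Col23a1 and Col25a1, spanned between 0.19 and 0.49, and Col17a1, a hemidesmosome component of stratified epithelium, had 5.47, 5.41 and 5.34 in the cultures, 5.47 in adult and 5.17 in neonatal cells, and 5.17 in iPS cells.

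Chains that assemble into 1 molecule did not all differ by like amounts. Col4a1 and Col4a2 stayed within 0.60 of each other in each difference from iPS cells, less than the probe set SD of each comparison. Col1a1 and Col1a2, which form a trimer in a fixed ratio, differed from iPS cells by 4.44 and 4.50 in adult cells and by 4.38 and 3.82 in neonatal cells. In the cultures the differences were 2.93 and 1.06 with both agents, 2.62 and 1.02 with NRG-1 and 2.95 and 1.33 with DMSO. The gap between these chains was 1.60 to 1.86 in the cultures, 2.61 to 3.22 times the probe set SD, and 0.09 and 0.92 times it in adult and neonatal cells. The probe set SD is that of 1 difference. A gap between 2 differences spreads more widely, so these multiples are too large.

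Col8a1 and Col8a2 differed from iPS cells by 4.85 and 0.21 in adult cells and Col11a1 and Col11a2 by 3.15 and 0.12. For Col5a1 and Col5a2 the adult differences were 1.59 and 4.64, but the brighter Col5a1 probe set gave 3.04. Chains of collagen VI lay within 0.23 of each other for Col6a2 and Col6a3, and Col6a1 was up to 0.99 above them. A log2 value that is dim in iPS cells can understate a difference, and Col8a2 was below the median in 5 of 6 libraries.

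**Figure D4:**
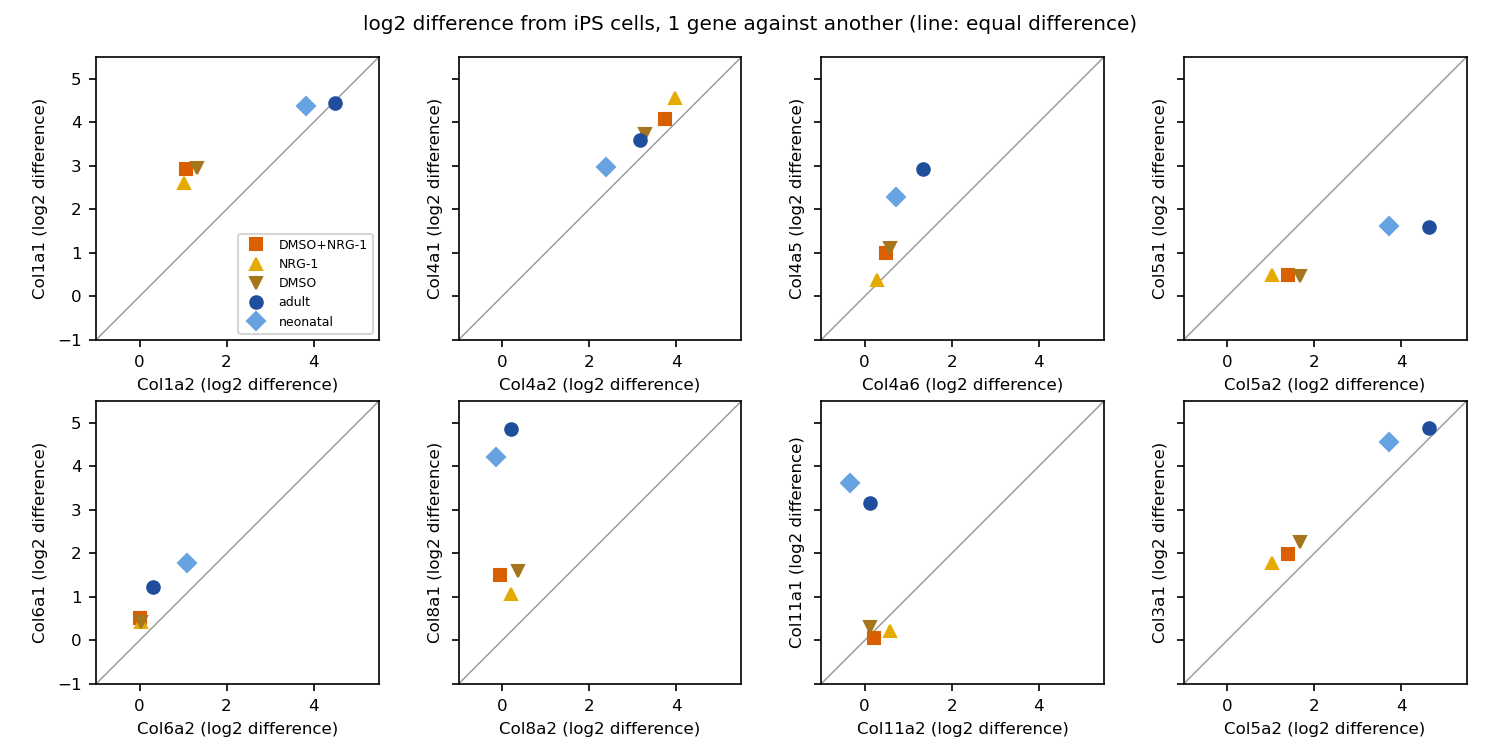
Each panel sets the log2 difference from iPS cells of 1 gene (y axis) against that of a partner chain or neighbour (x axis), with 1 point for each of 5 libraries and a line of equal difference. Col4a1 and Col4a2 lie just above the line in all libraries (0.34 to 0.60), Col1a1 and Col1a2 lie near it in the adult and neonatal libraries and 1.60 to 1.86 above it in the cultures, and Col8a1 and Col11a1 are high in the adult and neonatal libraries with no like difference in Col8a2 and Col11a2.

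Over all 44 collagen genes, the culture with both agents had 9 higher and 1 lower than iPS cells by at least 2-fold, beside 13% and 13.1% of all genes that passed the filter on dim values. In the culture with NRG-1, 9 were higher and 1 lower, beside 11.3% and 14.5% of all genes, and in the culture with DMSO 10 were higher and 0 lower, beside 13.1% and 13.3%. In adult cells 16 were higher and 2 lower (13.1% and 14.1% of all genes), and in neonatal cells 16 higher and 2 lower (13% and 11.2%). At 4-fold the numbers higher were 5, 3 and 6 in the cultures with both agents, NRG-1 and DMSO, 12 in adult and 11 in neonatal cells, beside 3.66%, 2.96%, 3.6%, 4.6% and 4.51% of all genes. None was 4-fold lower (0 of the 35 to 38 that passed in each), beside 3.2%, 3.7%, 3.42%, 3.59% and 3.13% of all genes. A gene passed the filter when the higher of its 2 values reached the median of all values, which 35 to 38 collagen genes did in these comparisons.

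Between the 2 heart-derived libraries, the share of collagen genes at least 2-fold apart (2.7% each way) was near that of all genes. Of 37 that passed, 1 was at least 2-fold higher in adult than in neonatal cells and 1 was lower, beside 2.52% and 2.92% of all genes. At 4-fold 1 was higher and 0 lower, beside 0.372% and 0.311% of all genes. The higher gene was Col15a1, with 8.20 in adult and 5.80 in neonatal cells, a difference of 2.40 that ranked 29 of all genes. The lower was Col12a1, at 8.58 and 10.24, a difference of -1.67. Both differences were larger than the probe set SD of 0.38.

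Smaller differences ran in both directions. Col5a2 and Col14a1 were 0.93 and 0.89 higher in adult cells, Col6a3, Col6a2 and Col6a1 were lower by 0.92, 0.79 and 0.56, and Col1a1 differed by 0.06. Of the 44 genes 34 had a positive difference, with a median of 0.33 beside 0.00 for all genes. The basement membrane median was 0.64 and the fibrillar median 0.25. The macrophage markers moved with this comparison, 4 of 8 being at least 2-fold higher in adult cells, beside 2.52% of all genes. Their log2 values summed to 52.67 in adult and 43.39 in neonatal cells. Cardiomyocyte markers summed to 68.90 in adult and 86.77 in neonatal cells. Their part in the collagen differences was not tested.

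The cultures differed little from each other, and the counts of collagen genes at least 2-fold apart were near the shares of all genes. NRG-1 minus DMSO reached 2-fold in 0 of the 36 collagen genes that passed the filter in either direction, beside 0.36% higher and 1.78% lower among all genes (0.00749% and 0.0749% at 4-fold). The largest positive differences were those of Col4a1 (0.83, with 11.87 with NRG-1 and 11.04 with DMSO) and Col4a2 (0.69, with 11.26 and 10.58). The largest negative differences were those of Col4a5 (-0.73), Col12a1 (-0.69), Col5a2 (-0.64), Col8a1 (-0.52) and Col3a1 (-0.49). Col1a1 and Col1a2 differed by -0.33 and -0.31. All of these were at or above the probe set SD of 0.30 in size, and with 1 library each none can be set against the spread between cultures. The 2 probe sets of Col1a2 disagreed, with -0.54 and -0.08.

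The culture with both agents was also set against each single agent. Both agents minus DMSO reached 2-fold in 0 collagen genes, beside 0.0455% higher and 0.053% lower among all genes, and Col4a1 and Col4a2 differed by 0.34 and 0.46. Both agents minus NRG-1 alone also reached 2-fold in 0 genes, beside 1.08% and 0.293% of all genes. Col12a1, Col4a5 and Col8a1 differed there by 0.67, 0.60 and 0.44, and Col4a1 by -0.49. The culture with both agents thus lay between the others for Col4a1, Col4a2, Col3a1, Col5a2, Col8a1 and Col4a5. These 3 comparisons share libraries with each other.

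Set against neonatal cells, the cultures were lower in several interstitial collagens, while the numbers higher were near the shares of all genes or below them. Of the basement membrane genes, 3 were higher with both agents, 3 with NRG-1 and 1 with DMSO, and 1 was lower in each. The median of that class was -0.11 in each culture. With both agents 12 collagen genes were lower and 4 higher by at least 2-fold, beside 10.4% and 9.38% of all genes. With NRG-1 alone 12 were lower and 4 higher (12.7% and 8.95% of all genes), and with DMSO alone 13 were lower and 2 higher (10.4% and 9.23%). At 4-fold 7 genes were lower in each culture, beside 2.59%, 3.44% and 2.5% of all genes, and 1, 0 and 1 were higher with both agents, NRG-1 and DMSO, beside 2.84%, 2.51% and 2.75%. Col14a1 differed by -4.27, -4.30 and -4.09 with both agents, NRG-1 and DMSO, and since it was dim in the cultures these sizes may be understated. Col11a1 differed by -3.57, -3.41 and -3.33. Col18a1 was higher, at 1.57, 1.40 and 1.47, and Col20a1 at 2.02, 1.95 and 2.06.

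In 9 genes every culture was at least 2-fold below both heart-derived libraries, beside 4.71% of all genes: Col1a1, Col1a2, Col3a1, Col4a5, Col5a1, Col5a2, Col8a1, Col11a1 and Col14a1. In 8 genes all 5 other libraries were at least 2-fold above iPS cells, beside 3.65% of all genes. They were Col1a1, Col1a2, Col3a1, Col4a1, Col4a2, Col5a2, Col8a1 and Col12a1. The fibroblast markers moved in the same direction as the first set, 7 of 10 being at least 2-fold lower than in neonatal cells with both agents, 9 with NRG-1 and 7 with DMSO, beside 10.4%, 12.7% and 10.4% of all genes. Their part in the collagen values was not tested.

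Genes that modify and fold collagen chains were high in the cultures as well as in the heart-derived libraries. Of 14 measured genes for chain hydroxylation and glycosylation, 7 were at least 2-fold higher than in iPS cells in each culture, 11 in adult and 8 in neonatal cells, and 0 were lower. For this list and those that follow, the shares of all genes that were higher were 13%, 11.3% and 13.1% with both agents, NRG-1 and DMSO, 13.1% in adult and 13% in neonatal cells, and the shares lower were 13.1%, 14.5%, 13.3%, 14.1% and 11.2% in the same order. P4ha1, a catalytic subunit of prolyl hydroxylase, had 11.24, 11.24 and 11.03 in the cultures with both agents, NRG-1 and DMSO, 10.95 in adult and 10.15 in neonatal cells, against 8.10 in iPS cells. The other catalytic subunits split. P4ha2 was highest in the cultures, with 9.63, 9.76 and 9.41, against 7.62 in adult and 6.89 in neonatal cells and 6.34 in iPS cells. P4ha3 was highest in adult cells (9.83), with 8.38 in neonatal cells, 7.34, 6.12 and 7.14 in the cultures and 6.95 in iPS cells.

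Among the prolyl 3-hydroxylases, P3h2, which acts on collagen IV, had 10.09, 9.33 and 9.83 in the cultures, 8.52 in adult and 9.42 in neonatal cells, against 6.22 in iPS cells. P3h1 and P3h3 were highest in the heart-derived libraries, P3h3 with 9.70 and 8.75 in adult and neonatal cells, 7.62, 7.25 and 7.64 in the cultures and 7.19 in iPS cells. Plod2, the lysyl hydroxylase that acts on telopeptides, was 2.22, 2.34 and 1.92 above iPS cells in the cultures. Serpinh1, the collagen chaperone HSP47, had 10.43, 10.51 and 10.24 in the cultures, 10.96 in adult and 11.09 in neonatal cells, against 8.87 in iPS cells. Of the 7 measured chaperone and export genes, 3 were at least 2-fold higher in each culture, 5 in adult and 4 in neonatal cells. Creb3l1, a transcription factor of the secretory pathway that acts on collagen I in bone, was 1.18 higher with NRG-1 than with DMSO, at 9.72 and 8.54.

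Of 7 genes of propeptide removal, Pcolce, Pcolce2 and Tll1 were at least 2-fold higher than in iPS cells in both heart-derived libraries and in none of the cultures. Bmp1 was higher in all 5 libraries, Adamts14 in adult cells (1.30) but not in neonatal cells (0.96), and Tll2 and Adamts3 in neither heart-derived library; a difference between libraries in these counts was not tested. Of 7 measured genes 5 were at least 2-fold higher than in iPS cells in adult and 4 in neonatal cells, against 1 higher and 1 lower in each culture. The lower gene was Pcolce2, an enhancer of procollagen C-proteinase, with 5.34, 5.66 and 5.59 in the cultures, 10.09 in adult and 9.86 in neonatal cells and 7.59 in iPS cells. Pcolce had 7.81, 7.72 and 8.13 in the cultures, 10.52 in adult and 10.30 in neonatal cells and 8.12 in iPS cells. Bmp1, the C-proteinase itself, was the higher gene in each culture, by 1.36, 1.42 and 1.17.

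Of 9 measured collagen receptors, 1 was at least 2-fold higher with both agents, 0 with NRG-1, 1 with DMSO, 6 in adult and 4 in neonatal cells than in iPS cells, and 1, Itga1, was lower with NRG-1. Ddr2, a tyrosine kinase receptor for fibrillar collagen, had 6.54, 5.79 and 6.60 in the cultures, 10.35 in adult and 10.11 in neonatal cells, against 5.69 in iPS cells. Itga1, a collagen-binding integrin chain, had 5.11, 5.06 and 5.13 in the cultures, 8.40 in adult and 8.04 in neonatal cells, and 6.07 in iPS cells. Itga2, another such chain, was 1.41 lower with NRG-1 (5.61) than with DMSO (7.02). Of the 9 breakdown genes, 2 were at least 2-fold higher than in iPS cells with both agents, 1 with NRG-1, 2 with DMSO, 5 in adult and 5 in neonatal cells, and 1, Mmp9, was lower in neonatal cells (-1.13). Mmp14, a membrane collagenase, had 9.37, 9.01 and 9.31 in the cultures, 11.09 and 11.17 in adult and neonatal cells and 7.78 in iPS cells, and Ctsk, a lysosomal collagenase, was high in adult (8.59) and neonatal cells (8.04) alone.

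**Figure D5:**
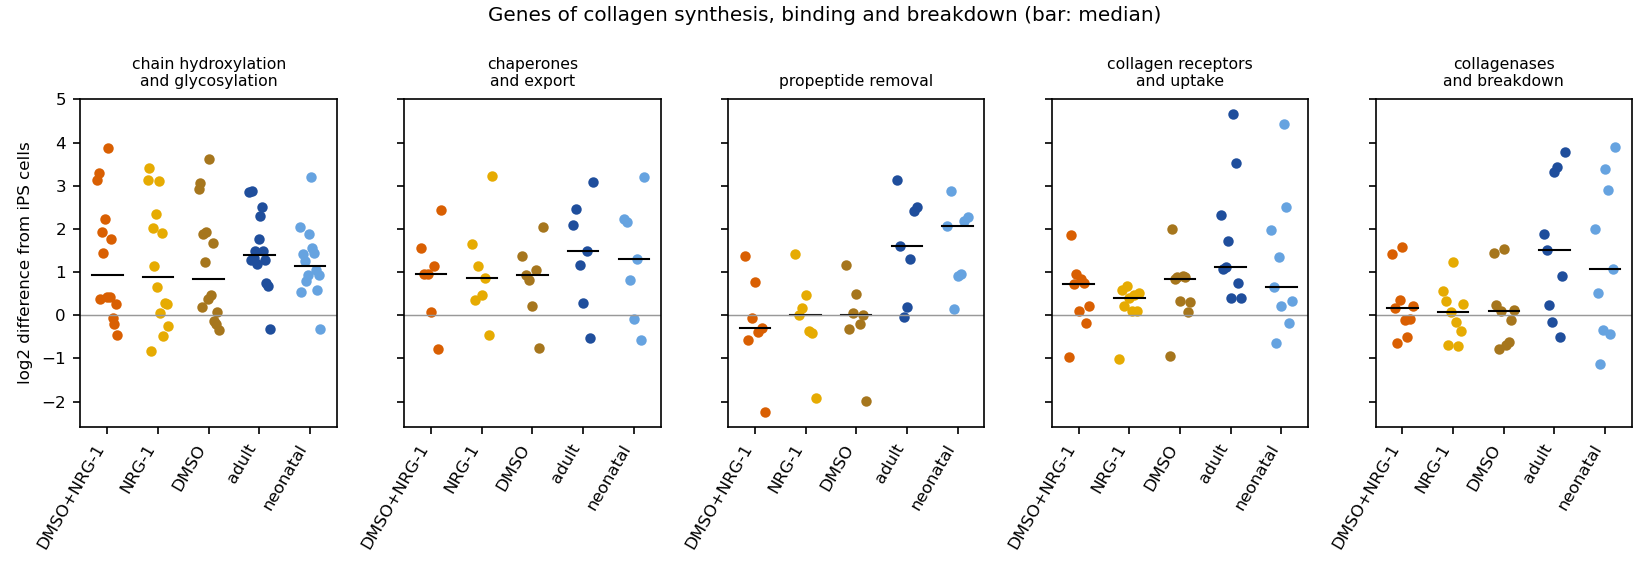
Each point is the log2 difference from iPS cells (y axis) of 1 gene in 1 of 5 libraries (x axis), in 5 panels for lists of collagen synthesis, binding and breakdown, and bars are medians over all measured members. For hydroxylation and glycosylation the medians are 0.94, 0.89 and 0.85 in the cultures, 1.41 in adult and 1.14 in neonatal cells, whereas for propeptide removal they are between -0.31 and 0.01 in the cultures, 1.61 in adult and 2.06 in neonatal cells.

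Proteins that bind collagen fibrils did not share 1 order. Sparc, a secreted collagen-binding protein, had 12.19, 12.07 and 12.05 in the cultures, 12.19 in adult and 11.91 in neonatal cells, against 10.78 in iPS cells. Of 9 measured, 4 were at least 2-fold higher than in iPS cells in each culture, 6 in adult and 7 in neonatal cells, with medians of 0.94, 0.80 and 0.91 in the cultures, 2.31 in adult and 2.44 in neonatal cells. Decorin (Dcn), which coats fibrils, had 8.96, 8.74 and 9.71 in the cultures, 11.48 in adult and 10.42 in neonatal cells, against 6.69 in iPS cells. Of the 8 measured proteins that carry collagen-like helices but fall outside the symbol rule, 1 was at least 2-fold higher with both agents, 0 with NRG-1, 1 with DMSO, 4 in adult and 2 in neonatal cells. The counts in the cultures are near the share of all genes. Cthrc1, a secreted collagen triple helix repeat protein, had 7.84, 7.51 and 8.01 in the cultures, 9.80 in adult and 9.93 in neonatal cells and 6.67 in iPS cells.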

How the data were processed

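RNA of 6 libraries was hybridised to 1 array each. The values are log2 expression per probe set, which the authors deposited after RMA, as named in the submitters' processing notes. That method subtracts background, gives all arrays 1 distribution and combines the probes of a set. No source used here names the software version or the annotation's genome build. The arrays' number, not a read depth, limits the precision.

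Of 41345 probe sets, 23521 named a single symbol in the platform annotation, and sets of a gene were averaged, giving 22180 genes. Differences were taken between libraries in 12 comparisons. A gene passed when its higher value reached the median of all values (5.20), and was called at 2-fold, with no test. The probe set SD is the SD of the disagreement of 968 genes with 2 probe sets, divided by the square root of 2. The counting was tested on simulated data. The text names, per comparison, the collagen genes with the largest differences each way and chains fixed by role. The members and lists were chosen with earlier results of these data known. Alternatives were no filter, a 75th percentile filter, the brightest probe set, a 4-fold threshold, cyclic loess (limma 3.58.1, R 4.3.3) and a housekeeping shift. Python 3.11.15, numpy 2.4.6, pandas 2.3.3 and matplotlib 3.10.9 were used. Protein sequences were not used here.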

Additional observations from a re-analysis of the deposited data

How the results depend on the processing

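Counts of collagen genes at least 2-fold apart kept within 1.5 times of their value with no filter and with the brightest probe set. With the filter at the 75th percentile, the number lower fell to 0 with both agents and to 0 with NRG-1, against 1 each, and to 1 in adult and 1 in neonatal cells, against 2 each, all relative to iPS cells. With cyclic loess, 1 gene was lower with DMSO than in iPS cells, against 0, and 2 were higher in adult than in neonatal cells, against 1. With the housekeeping shift, the number lower than in iPS cells was 0 with NRG-1, 0 in adult and 1 in neonatal cells, the number lower in adult than in neonatal cells was 2, and the number higher with both agents than in neonatal cells was 2. The shift moves all genes of a comparison by 1 constant. The 44 of 528 gene differences that moved by more than the probe set SD were thus all those of neonatal minus iPS. Relative to the median of all genes the constant cancels, so the count of 0 there was fixed in advance. At 4-fold, the numbers higher than in iPS cells were 5 with both agents, 3 with NRG-1 and 6 with DMSO, and the number lower was 0 with both agents, 0 with NRG-1, 0 in adult and 0 in neonatal cells. At 4-fold against neonatal cells, 1 gene was higher and 7 lower with both agents, 0 higher and 7 lower with NRG-1, 1 higher and 7 lower with DMSO, and 0 lower in adult cells. The fewer calls at 4-fold and at the stricter filter follow from the construction of these settings. The calls that changed with the housekeeping shift follow from the constants it gives each library, and the source of those constants was not tested. For loess the cause was not tested. No difference of at least 2-fold changed sign. Smaller ones did, in 98 of 528 with the housekeeping shift (up to a size of 0.51 as reported), 23 with cyclic loess (up to 0.085) and 3 with the brightest probe set (up to 0.027). No paired analysis was possible because each group is 1 library, which also means that no replicate could be left out. Signals near background, as for Col4a3, Col4a4, Col10a1, Col19a1 and Col28a1, cannot show a difference.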
